A study of Mus musculus with 8 samples.

Results

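Expression of 9 tumor suppressor and cell cycle inhibitor genes, Trp53, Mdm2, Cdkn1a, Cdkn2a, Cdkn2b, Cdkn1b, Rb1, Smad4 and Stk11, was followed from normal mouse prostate through prostatic intraepithelial neoplasia (PIN) to prostate cancer (PCa). The genes were chosen by symbol, and all 9 were found among the 27036 genes of the count table. Bulk RNA sequencing was available for 3 WT, 3 PIN and 2 PCa libraries. WT libraries came from normal prostate of sex- and age-matched animals carrying the R26 mTmG reporter allele and Osr1 Cre (R26 mTmG/+:Osr1 Cre/+). PIN and PCa libraries came from animals that carry the same reporter and Osr1 Cre, and in which a transgene at the Rosa26 locus is switched on by Cre in cells that express Osr1 and in their descendants. All groups therefore share the reporter and Cre, on a mixed C57BL/6 and 129S1/SvImJ background. PIN and PCa differ from WT in the transgene and in the lesion that was dissected, and from each other in the lesion. Lesion tissue was selected under the microscope for atypical or tumor cells, and the ages of these animals are not given in the sources used here. In the study, PCa lesions started at a later age than PIN lesions. Age may therefore differ between PIN and PCa, and cannot be told apart from lesion. Because the libraries are bulk tissue, fewer cells of a type and less RNA per cell cannot be told apart.

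Except for Mdm2, which antagonizes p53, these genes act as brakes on cell growth or division. The retinoblastoma protein, the product of Rb1, holds back the E2F transcription factors until cyclin-dependent kinases (CDKs) phosphorylate it. The CDK inhibitors p16Ink4a and p15Ink4b, from Cdkn2a and Cdkn2b, bind CDK4 and CDK6, and p21 and p27, from Cdkn1a and Cdkn1b, act mainly on CDK2 complexes. Cdkn2a also encodes p19Arf, which shields p53 (Trp53) from its ubiquitin ligase Mdm2, and Cdkn1a and Mdm2 are both transcribed under p53 control. Smad4 carries TGF-beta and BMP signals to the nucleus, and Stk11 encodes LKB1, the kinase that activates AMPK and its relatives. Loss of RB1, CDKN1B or SMAD4 is known from human prostate cancer.

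Total counts were between 21751803 and 29730420 per WT library and between 27421827 and 28517421 per PIN library, and the PCa libraries held 23527628 and 24457124. A single secretory transcript, 9530053A07Rik, took between 13.1% and 22.1% of the counts in each WT and PIN library. The PCa libraries differed from each other more than any other pair of one group did (Spearman correlation 0.839 across genes). Summed smooth muscle markers were between 2025 and 4877 CPM (counts scaled to a common library total, after TMM) in WT, between 3208 and 5876 CPM in PIN, and 42.8 and 19.8 CPM in PCa. Summed seminal vesicle markers reached 15880 CPM in WT 1, stayed under 1 CPM in WT 2 and WT 3 and between 43.9 and 88.7 CPM in PIN, and were 3840 and 883 CPM in PCa 1 and PCa 2. Probasin (Pbsn), the defining secretory gene of the mouse prostate, fell by 8.70 on the log2 scale in PCa (SE 1.33, edgeR adjusted p = 0.0123). The luminal list, which includes Pbsn, summed to between 10917 and 34275 CPM in WT and to 5070 and 3332 CPM in PCa. Pbsn was the 1 call among its 8 tested genes in edgeR, and the list's median log2 fold change in PCa against WT was -0.57. The tumors also differed in other marker lists. Summed leukocyte markers were between 36.3 and 81.6 CPM in WT, between 47.3 and 105 CPM in PIN, and 169 and 22.8 CPM in PCa 1 and PCa 2, and fibroblast markers 744 and 282 CPM in PCa. Summed basal markers were between 358 and 778 CPM in WT, and 720 and 546 CPM in PCa 1 and PCa 2, within that range. On the log2 scale, basal markers lay a median of 1.10 above the mean WT level in PCa 1 and at -3.39 in PCa 2. The same medians were, for leukocyte markers, 1.72 and -0.72 and, for fibroblast markers, -0.16 and -2.40. The label numbers of the libraries fall into separate series, with WT 1 in one, WT 2 and WT 3 in another and all PIN and PCa libraries together in one more. Whether a series marks a batch is not stated. Condition and series cannot be told apart where lesions are compared with WT, whereas the 2 lesion groups share 1 series. The part of these differences in the results below was not tested, except where values without a library are given.

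Genes were called different between groups at a log2 fold change beyond 1 in either direction and an adjusted p under 0.05 in edgeR's quasi-likelihood test, fitted to all 14034 genes with CPM above 1 in at least 2 libraries and to all 8 libraries. All 9 genes passed that filter, Cdkn2a only through its PCa libraries. Of the 9 genes, 0 were called in PIN against WT by edgeR, DESeq2 and limma, where 1, Cdkn2a, had an unadjusted p under 0.05. Over all genes 0% were called in that comparison by edgeR, with 492 genes at an unadjusted p under 0.05 and 39 calls by DESeq2. In PCa against WT 1 of 9, Cdkn2a, was called by edgeR, higher, and 0 of the 8 that did not depend on PCa to pass the filter, beside 8.54% of all tested genes called in either direction and 4.35% called higher. DESeq2 called 3, Cdkn1a, Cdkn2a and Cdkn2b, and limma 1. In PCa against PIN 0 of 9 were called by edgeR and by limma, beside 5.72% of all genes in either direction and 2.55% higher, and 3, Cdkn1a, Cdkn2a and Cdkn2b, had an unadjusted p under 0.05. DESeq2 called 2, Cdkn1a and Cdkn2b. A count of 1 of 9 is not a result about the group as a whole. In CPM, all libraries of PIN were above all of WT for 2 of 9 genes against 6.48% of all genes, all of PCa above all of WT for 3 of 9 against 17.7%, and all of PCa above all of PIN for 4 of 9 against 21.1%. Cdkn2a, which passed the filter through PCa alone, is included in each of these counts. In the lower direction the counts were 1 of 9 against 6.38%, 1 of 9 against 19.6% and 1 of 9 against 23.2%, each being Stk11. The median log2 fold changes of the 9 were -0.09 in PIN and 0.44 in PCa against WT, and 0.36 between PCa and PIN, and without Cdkn2a -0.10, 0.37 and 0.26, beside -0.02, 0.01 and 0.07 over all tested genes. The comparisons against WT share the WT libraries, and the PCa comparisons share the PCa libraries.

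Compared with one another as TPM, in which counts are scaled by exon length and then to a common total, the levels of the 9 genes spanned a wide range. In WT, Smad4 was highest at 123 ± 8.36 TPM (SD, n = 3), followed by Stk11 at 78 ± 16.5, Cdkn1b at 62.8 ± 9.35, Mdm2 at 50.7 ± 12.9, Trp53 at 23.0 ± 8.98, Rb1 at 20.9 ± 3.65, Cdkn1a at 19.7 ± 18 and Cdkn2b at 2.16 ± 1.02 TPM. Cdkn2a was last at 0.0770 ± 0.0692 TPM. The ranges of Stk11, Cdkn1b and Mdm2 overlapped from neighbour to neighbour, as did those of Trp53, Rb1 and Cdkn1a. Gaps without overlap separated Smad4 from Stk11, Mdm2 from Trp53, Cdkn1a from Cdkn2b and Cdkn2b from Cdkn2a. In PCa the mean of Cdkn1a was highest, at 210 ± 138 TPM (SD, n = 2), but its tumors spanned 113 to 307 TPM and overlapped the 134 to 195 TPM of Smad4. Cdkn2b reached 13.8 ± 1.72 and Cdkn2a 6.81 ± 0.883 TPM in PCa and remained the lowest of the 9.

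At the Cdkn2a/Cdkn2b locus on chromosome 4, Cdkn2a and Cdkn2b lie side by side, and for both the PCa libraries stood above all WT and PIN libraries and close to each other. Cdkn2a (ENSMUSG00000044303) lies at chr4:88920377-88940557 of mm9 on the minus strand, and Cdkn2b (ENSMUSG00000073802) at chr4:88952198-88956941, 11640 bases apart. Cdkn2a has alternative first exons. The transcript of p16Ink4a starts in the exon chr4:88927890-88928096, and that of p19Arf starts 12427 bases further upstream, in the exon chr4:88940238-88940523. Both continue into the shared exon chr4:88922549-88922889, read in different frames, so that a gene-level count cannot separate p16Ink4a from p19Arf. The stretches of 250 bases upstream of the starts at this locus, and of the upstream start of Cdkn1a at chr17:29227924 (plus strand), are shown because Cdkn1a, Cdkn2a and Cdkn2b had the largest fitted log2 fold changes in PCa against WT. They are RefSeq promoter windows, matched letter for letter to mm9 and written in the direction of transcription, with motif matches in capitals.

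Cdkn2a, p19Arf start, chr4:88940524-88940773, minus strand: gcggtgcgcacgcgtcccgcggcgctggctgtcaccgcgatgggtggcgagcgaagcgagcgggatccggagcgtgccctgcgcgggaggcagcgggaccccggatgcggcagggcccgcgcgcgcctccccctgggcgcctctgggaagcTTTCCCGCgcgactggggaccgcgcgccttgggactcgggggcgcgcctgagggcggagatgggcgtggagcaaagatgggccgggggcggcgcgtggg

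Cdkn2a, p16Ink4a start, chr4:88928097-88928346, minus strand: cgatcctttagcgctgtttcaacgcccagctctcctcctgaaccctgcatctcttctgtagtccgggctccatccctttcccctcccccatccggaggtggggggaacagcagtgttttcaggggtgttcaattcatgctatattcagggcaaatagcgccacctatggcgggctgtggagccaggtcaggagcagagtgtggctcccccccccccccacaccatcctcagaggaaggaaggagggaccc

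Cdkn2b, chr4:88956942-88957191, minus strand: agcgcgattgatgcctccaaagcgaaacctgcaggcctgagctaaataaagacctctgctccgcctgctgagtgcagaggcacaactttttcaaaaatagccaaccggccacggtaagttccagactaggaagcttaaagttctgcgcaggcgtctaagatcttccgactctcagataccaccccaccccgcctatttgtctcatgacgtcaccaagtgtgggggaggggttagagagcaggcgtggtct

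Cdkn1a, upstream start, chr17:29227674-29227923, plus strand: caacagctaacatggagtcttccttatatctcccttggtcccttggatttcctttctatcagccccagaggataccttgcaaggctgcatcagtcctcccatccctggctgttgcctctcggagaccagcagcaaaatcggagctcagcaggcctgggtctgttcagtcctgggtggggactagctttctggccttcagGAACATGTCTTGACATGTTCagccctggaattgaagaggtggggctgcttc

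The windows were searched on both strands for the E2F motif in the forms TTTCCCGC, TTTCGCGC, TTTGCCGC and TTTGGCGC, and for the p53 response element, a pair of adjoining 10-base elements, with at most 1 base off its consensus. The p19Arf window held TTTCCCGC with its first base at position -99, counting the base before the start as -1. Of 32851 windows in the table, 1.86% held an E2F form. The Cdkn1a window held the p53 element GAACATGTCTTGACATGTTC with its first base at -51, and 0.0578% of all windows held such an element. Neither motif was found in the windows of Trp53, Cdkn1b, Mdm2 or Stk11, nor in those of p16Ink4a, Cdkn2b and the downstream start of Cdkn1a. The table had 9 windows for 7 of the genes. A match describes letters only.

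Cdkn2a counts were 1, 1 and 0 in WT, 3, 17 and 2 in PIN, and 59 and 64 in PCa. Scaled to library size, these are 0.0494, 0.0453 and 0 CPM in WT, 0.108, 0.586 and 0.0753 CPM in PIN, and 1.9 and 2.19 CPM in PCa. All PIN libraries stood above all WT libraries, and both PCa libraries stood above all others. The summed counts gave a PCa to WT ratio, scaled to library size, of 71.1 (95% exact interval 19.3 to 593, counting error only) from 123 against 2 counts. The corresponding PIN to WT ratio was 9.19 (2.26 to 80.6), from 22 against 2 counts. The fitted log2 fold change of Cdkn2a in PCa against WT was 5.90 (SE 1.22), with an adjusted p of 0.0293 by edgeR's quasi-likelihood test. Because the gene entered the test through the group where it is high, its call is given as a description. With no filter on low counts it was 5.87 (adjusted p = 0.0320). Its PCa against PIN difference was 2.97 on the log2 scale (SE 1.00, adjusted p = 0.128) and its PIN against WT difference was 2.94 (SE 1.18, unadjusted p = 0.0385, adjusted p = 1). PIN 2 gave 17 of the 22 PIN counts, and without it these were 4.41 (adjusted p = 0.101) and 1.49 (adjusted p = 1). With limma the PIN against WT difference was 1.34. The mean level of Cdkn2a lay at the 0.705 percentile of the 14034 tested genes. The call was lost without WT 1 (adjusted p = 0.0696), WT 2 (0.0604), WT 3 (0.0912), PIN 1 (0.0513) or PIN 3 (0.0524), with the replicate block (0.0659) and with only the WT and PCa libraries in the fit (0.0778), with log2 fold changes between 5.30 and 6.34, and the gene was not tested without PCa 1 or PCa 2.

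Cdkn2b showed the same separation of PCa, at a smaller size. Its levels were 1.24, 1.5 and 0.403 CPM in WT, 0.756, 0.620 and 1.09 CPM in PIN, and 4.60 and 5.28 CPM in PCa. WT and PIN overlapped, and both PCa libraries were above every other library. The log2 fold change was 2.24 in PCa against WT (SE 0.62, adjusted p = 0.0643) and 2.58 in PCa against PIN (SE 0.62, adjusted p = 0.0540), and neither passed the threshold in edgeR. The summed counts gave a PCa to WT ratio of 4.97 (3.82 to 6.56) and a PCa to PIN ratio of 6.04 (4.63 to 7.99). PCa 1 and PCa 2 differed 1.15-fold for Cdkn2b and 1.16-fold for Cdkn2a, although they differed widely over all genes. With DESeq2, Cdkn2b was called in both comparisons (adjusted p = 0.00617 against WT and 0.00164 against PIN). It was also called against PIN without WT 2 (adjusted p = 0.0481) or without PCa 1 (0.0433). Within 1 Mb of the locus, 4 other genes were tested. Ptplad2, an acyl-CoA dehydratase gene named here after its values were seen, was the single call among them (log2 fold change 2.68, adjusted p = 0.0470), with 12.8, 6.66 and 11.9 CPM in WT, 35.3, 24.6 and 18.4 CPM in PIN, and 20.5 and 113 CPM in PCa. Mtap, a methionine salvage enzyme, had a log2 fold change in PCa against WT of 0.66 (adjusted p = 0.335) and Klhl9, a ubiquitin ligase adaptor, one of -0.20 (adjusted p = 0.679).

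**Figure D1:**
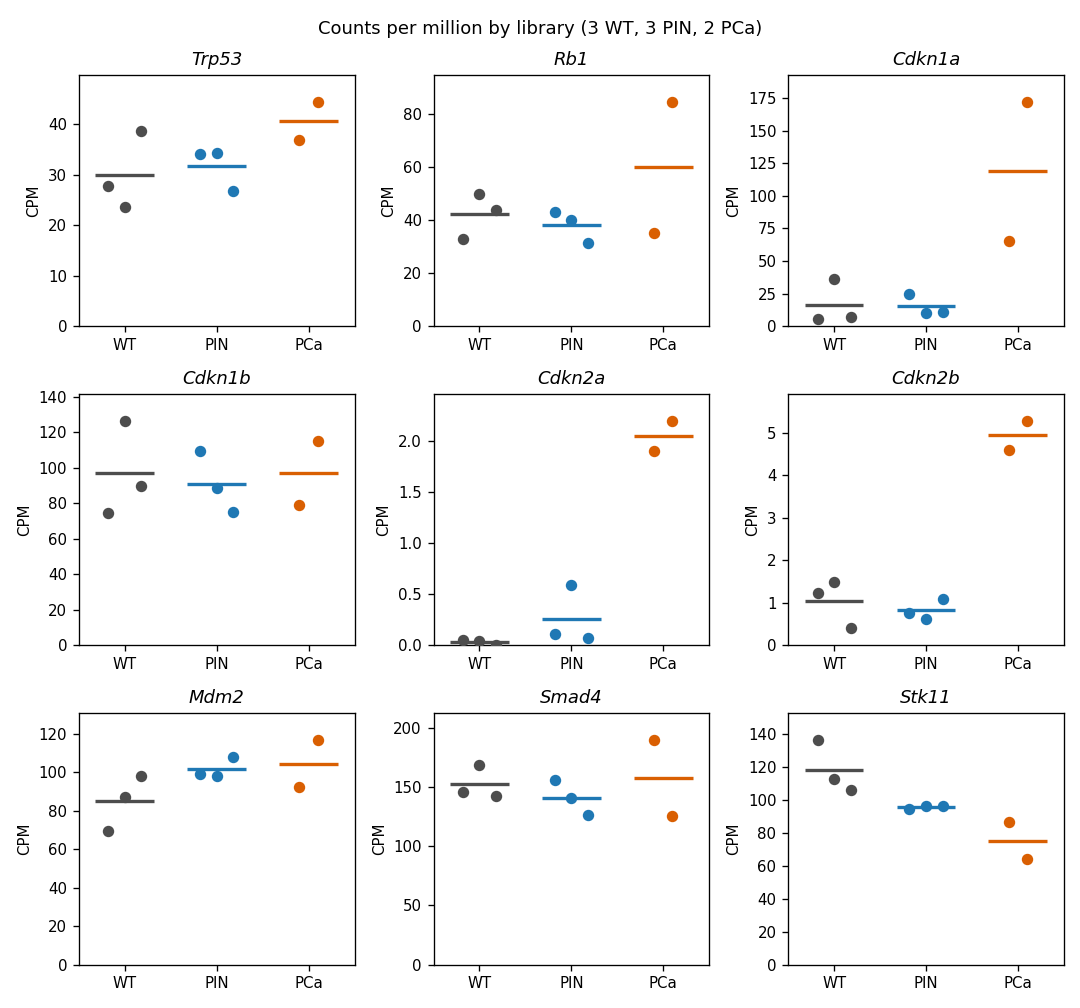
CPM of each gene by library, 1 panel a gene, with a linear vertical axis from 0 and points for the 3 WT, 3 PIN and 2 PCa libraries; bars are group means. Both PCa libraries lie above all WT and PIN libraries for Cdkn1a, Cdkn2a and Cdkn2b and below all of them for Stk11, whereas the PCa libraries lie on either side of the WT mean for Rb1, Cdkn1b and Smad4.

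The list of regulators of this locus was mixed. Of its 13 tested genes, 1 was called higher and 1 lower in PCa against WT, beside 8.54% of all tested genes called in either direction. The list's median log2 fold change was 0.31, against 0.01 over all tested genes. Ezh2, the Polycomb methyltransferase that silences the locus, was 14.7, 13 and 15.6 CPM in WT, 22.4, 11.7 and 17.0 CPM in PIN, and 74.9 and 46.8 CPM in PCa. It rose with a log2 fold change of 2.07 (SE 0.33, adjusted p = 0.0132). Tbx2, a T-box repressor of Cdkn2a and Cdkn1a, was 80.1, 23.0 and 67.7 CPM in WT, 26.5, 64.3 and 65.4 CPM in PIN, and 4.76 and 1.30 CPM in PCa. It fell by 4.23 on the log2 scale (SE 0.84, adjusted p = 0.0264). The fall of Tbx2 accompanied that of the smooth muscle markers, 7 of 7 of which fell in PCa. Without WT 3 the list's count of calls went from 2 to 0, and without WT 1, PIN 3 or PCa 2 to 1. The 3 tested genes with the pattern most like that of Cdkn2a over the 8 libraries were Cenpl, 2610109H07Rik and 1700030F18Rik (Pearson r of log2(CPM + 0.5) 0.972, 0.972 and 0.971, a description over libraries that share group and depth).

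Cdkn1a, which encodes p21, lies at chr17:29227924-29237667 on the plus strand. It was 5.39, 35.9 and 7.17 CPM in WT, 24.7, 10.4 and 11 CPM in PIN, and 65.6 and 172 CPM in PCa. WT 2 stood above the other WT libraries and below both PCa libraries. Its log2 fold change in PCa against WT was 2.88 (SE 0.87, adjusted p = 0.0805) and in PCa against PIN 2.95 (SE 0.87, adjusted p = 0.0928). Thus Cdkn1a did not pass the threshold in edgeR, although both PCa libraries were above all WT and PIN libraries. Without WT 2 it was called, at 4.24 against WT (adjusted p = 0.0242) and 2.95 against PIN (adjusted p = 0.0313), and without PCa 1 it was called at 3.43 (adjusted p = 0.0436) and 3.50 (adjusted p = 0.0433). Without PCa 2 it was 2.04 (adjusted p = 0.217) and 2.11 (adjusted p = 0.237). DESeq2 called it in both comparisons (adjusted p = 0.00564 and 0.00521). In PIN against WT its difference was -0.07 (SE 0.77), and 1.29 without WT 2, with no call.

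Trp53 itself, at chr11:69393861-69405375, passed no test. Its levels were 27.7, 23.7 and 38.8 CPM in WT, 34.2, 34.3 and 26.7 CPM in PIN, and 36.8 and 44.5 CPM in PCa. PCa overlapped WT and was above PIN. The log2 fold change in PCa against WT was 0.44 (SE 0.27, adjusted p = 0.330). Mdm2, at chr10:117125944-117147814, was 69.5, 87.3 and 98.1 CPM in WT, 99.0, 98.2 and 108 CPM in PIN, and 92.1 and 117 CPM in PCa. All PIN libraries were above all WT libraries, with PIN 2 barely above WT 3, and PCa overlapped both. Its log2 fold change was 0.26 in PIN (SE 0.19, adjusted p = 1) and 0.30 in PCa (SE 0.21, adjusted p = 0.404) against WT. mRNA level says nothing of p53 protein, which Mdm2 controls after translation.

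None of the 11 tested p53 relatives and regulators was called in PCa against WT by edgeR or by limma, 3 were at an unadjusted p under 0.05, and 1 was called by DESeq2 and 1 by edgeR without PCa 1. The median log2 fold change was 0.28, beside 0.01 over all tested genes. Atr, a DNA damage kinase upstream of p53, was 25.1, 34 and 28.4 CPM in WT, 35.4, 36.9 and 34.5 CPM in PIN, and 44.6 and 55.7 CPM in PCa. The 3 groups of Atr did not overlap, and the PCa against WT log2 fold change was 0.78 (SE 0.21, adjusted p = 0.0594). Ppm1d, a p53-induced phosphatase that dampens p53, had a log2 fold change of 0.98 (SE 0.29, adjusted p = 0.0775), and Mdm4, the partner of Mdm2, of 0.28 (SE 0.23, adjusted p = 0.462).

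Of 25 p53 target genes, 2 were called higher and 2 lower in PCa against WT, beside 8.54% of all tested genes called in either direction. The list's median was 0.42 on the log2 scale, beside 0.01 over all tested genes. Plk2, a stress-responsive polo-like kinase, was 10.9, 5.35 and 11.3 CPM in WT, 39.5, 17.4 and 23.1 CPM in PIN, and 46.9 and 131 CPM in PCa. All PIN libraries of Plk2 were above all WT libraries and below both PCa libraries. It rose by a log2 fold change of 3.27 in PCa against WT (SE 0.56, adjusted p = 0.0168), whereas its PIN against WT difference of 1.53 (SE 0.50) was not called. Sesn1, a sestrin that feeds p53 into AMPK signaling, rose by 1.35 (SE 0.25, adjusted p = 0.0217) from between 17.2 and 21.1 CPM in WT to 39.9 and 60.5 CPM in PCa. Fas, the death receptor, fell by 1.55 (SE 0.32, adjusted p = 0.0296), from between 15.8 and 25.2 CPM in WT to 6.56 and 6.65 CPM in PCa. Ak1, an adenylate kinase, fell by 1.98 (SE 0.48, adjusted p = 0.0445). With no filter on low counts, 3 genes of this list were called. Bax, the apoptosis effector, and Ccng1, cyclin G1, had log2 fold changes of 0.50 (SE 0.27, adjusted p = 0.277) and -0.23 (SE 0.26, adjusted p = 0.613). The number of called p53 targets was 0 without WT 3, 1 without PIN 3, 2 without WT 1 or PIN 1 and 7 without PCa 1.

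**Figure D2:**
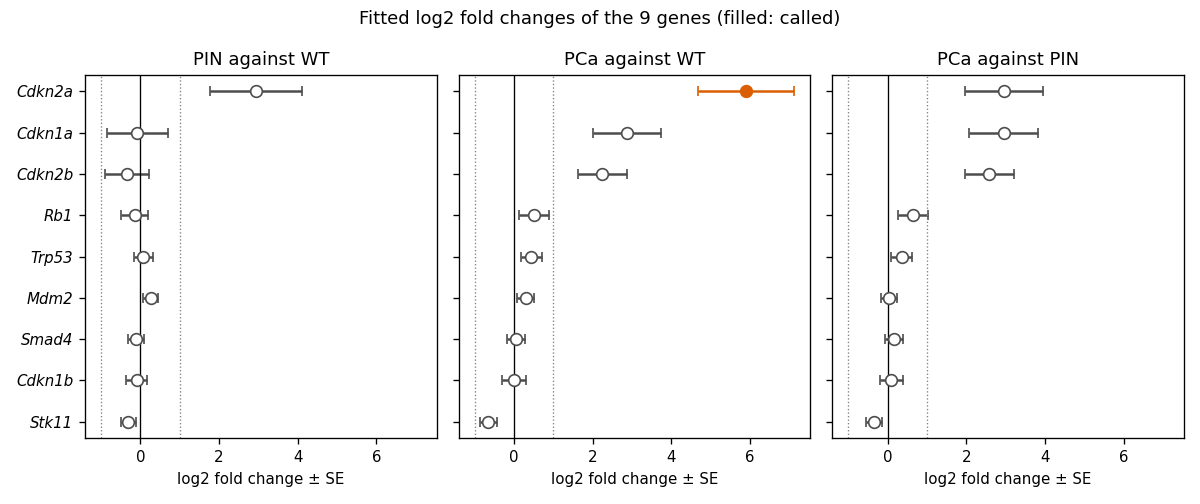
Fitted log2 fold changes (points) with standard errors (bars) of the 9 genes in the 3 comparisons (PIN and PCa each against WT, and PCa against PIN), ordered by the middle panel; dotted lines mark the fold limit of 1. Cdkn2a in PCa against WT, at 5.90, is the filled point that passed the test, and Cdkn1a and Cdkn2b lie beyond the limit at 2.88 and 2.24 with open points.

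Cdkn1b, which encodes p27, showed no detectable difference between groups. At chr6:134870419-134875531, it gave 74.6, 126 and 89.9 CPM in WT, 110, 88.4 and 75.2 CPM in PIN, and 79.2 and 115 CPM in PCa. The groups overlapped throughout. The log2 fold change of Cdkn1b in PCa against WT was 0.00 (SE 0.30, adjusted p = 0.996), in PCa against PIN 0.09 (SE 0.30) and in PIN against WT -0.09 (SE 0.27). p27 is mainly set by degradation through the SCF-Skp2 ligase. Skp2, its substrate receptor, was 4.05, 3.08 and 4.03 CPM in WT, 5.11, 3.27 and 2.98 CPM in PIN, and 7.95 and 25.0 CPM in PCa. It rose by 2.15 (SE 0.51, adjusted p = 0.0434) in PCa against WT, and PCa 2 was well above PCa 1. Cks1b, the Skp2 cofactor, had a log2 fold change of -0.58 (SE 0.37, adjusted p = 0.349). Foxo4, a forkhead factor that can induce p27, rose by 1.79 (SE 0.39, adjusted p = 0.0334), from between 35.9 and 44.5 CPM in WT to 79.6 and 190 CPM in PCa. These were the 2 calls among 11 tested genes of p27 turnover and transcription, beside 8.54% of all tested genes. The list's median was -0.02, beside 0.01 over all tested genes. With no filter on low counts, 1 gene of the list was called. No gene of that list was called without WT 1, WT 2, WT 3, PIN 2 or PIN 3, and 1 was called without PIN 1 or PCa 2.

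Among the other CDK inhibitors, 1 of 3 tested genes was called in PCa against WT, beside 8.54% of all tested genes. The call was Cdkn3, a phosphatase that dephosphorylates CDKs and is itself expressed in cycling cells. It was 0.395, 0.498 and 0.329 CPM in WT, 0.540, 0.207 and 0.904 CPM in PIN, and 5.34 and 4.08 CPM in PCa, a log2 fold change of 3.52 against WT (SE 0.67, adjusted p = 0.0235) and 3.09 against PIN (SE 0.66, adjusted p = 0.0393). Cdkn3, too, passed the filter through its PCa libraries alone, and with no filter these were 3.49 (adjusted p = 0.0290) and 3.06 (adjusted p = 0.0517), the latter not a call. No gene of this list was called against either group without WT 1, WT 3 or PCa 2, nor against PIN without PIN 1, PIN 2 or PIN 3. Cdkn1c, which encodes p57, was 4.99, 3.58 and 3.88 CPM in WT, 2.34, 3.75 and 2.34 CPM in PIN, and 3.57 and 50.1 CPM in PCa. Among the 8 libraries only PCa 2 had a high Cdkn1c level, and the log2 fold change of 2.69 (SE 0.87) did not pass the test (adjusted p = 0.0949), although DESeq2 called it (adjusted p = 0.0129). Cdkn2c, which encodes p18Ink4c, had a log2 fold change of 1.18 (SE 0.56, adjusted p = 0.223), and Cdkn2d, which encodes p19Ink4d, stayed at or under 0.346 CPM in all libraries and was not tested.

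Rb1, at chr14:73583480-73725629 on the minus strand, differed between the tumors. Its levels were 32.9, 49.8 and 43.8 CPM in WT, 43.1, 40.1 and 31.5 CPM in PIN, and 35.2 and 84.6 CPM in PCa. PCa 1 fell within the WT and PIN range and PCa 2 above it. The list medians of basal, leukocyte and fibroblast markers also differed between these tumors, although both basal sums lay within the WT range. The part of these markers in this difference, or in those of Smad4, Cdkn1c and Inpp4b, was not tested. The log2 fold change in PCa against WT was 0.51 (SE 0.37, adjusted p = 0.425), and -0.24 without PCa 2. Against PIN it was 0.65 (SE 0.37, adjusted p = 0.349). Without PCa 1, the remaining tumor gave a call against PIN (log2 fold change 1.16, adjusted p = 0.0353). The 7 genes tested within 1 Mb of Rb1 had a median log2 fold change of 0.59 in PCa against WT, with no call. Rb1 overlaps Lpar6, Rcbtb2 and Gm17233 in the annotation, and the treatment of shared and opposite-strand reads in counting is not given in the sources used here. The Rb1 relatives Rbl1 (p107) and Rbl2 (p130) had log2 fold changes of 0.57 (SE 0.27, adjusted p = 0.220) and -0.26 (SE 0.23, adjusted p = 0.516).

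Of 25 tested targets of the E2F factors, which the Rb1 product restrains, 13 were called higher and 0 lower in PCa against WT (12 not called), and 8 were called higher and 0 lower against PIN. Over all tested genes, 4.35% were called higher against WT and 2.55% against PIN. The list's median log2 fold changes were 1.68 and 1.52, and in PIN against WT 0.17 with no call. Cdc25a, a CDK-activating phosphatase, and Ung, a uracil-DNA glycosylase, had log2 differences below 0 in PCa against WT, of -0.44 (adjusted p = 0.314) and -0.12 (adjusted p = 0.896). Mcm3, a subunit of the replicative helicase, was 4.89, 1.99 and 7.17 CPM in WT, 6.91, 5.89 and 8.25 CPM in PIN, and 27.9 and 32.5 CPM in PCa. Both PCa libraries were above every WT and PIN library, and Mcm3 rose against WT by 2.68 (SE 0.49, adjusted p = 0.0209). E2f1, the founding E2F, was 6.15 and 7.03 CPM in PCa and between 0.136 and 3.16 CPM in WT, with a log2 fold change of 1.85 (SE 0.93, adjusted p = 0.242). The count of E2F targets called against WT was 1 with only the WT and PCa libraries in the fit, 9 with the replicate block and 19 with DESeq2, and between 7 and 13 with any 1 library left out, lowest without WT 1, and 8 without PIN 3. Against PIN it was 1 with the replicate block, 5 with no filter and 19 with DESeq2, and 1 without PIN 1, PIN 2 or PIN 3, 4 without WT 1 or WT 3, 5 without PCa 2, 13 without PCa 1 and 14 without WT 2.

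Among 13 tested CDKs, cyclins and RB relatives, 3 were called higher and 0 lower in PCa against WT, beside 4.35% of all tested genes called higher. Ccnb1, cyclin B1, rose by 3.92 (SE 0.61, adjusted p = 0.0126), from between 0.498 and 1.63 CPM in WT to 12.6 and 16.3 CPM in PCa. Ccna2, cyclin A2, rose by 3.52 (SE 0.38, adjusted p = 0.00644), from between 3.49 and 5.24 CPM to 44.7 and 54.2 CPM. Both belong to the S and M phases. The G1 partners targeted by INK4 inhibitors were not called by edgeR with all 8 libraries. Cdk4 was 102 CPM in both PCa libraries against between 78.3 and 82.0 CPM in WT (log2 fold change 0.36, SE 0.16, adjusted p = 0.207). Cdk6 was 5.76 and 32.2 CPM in PCa (log2 fold change 1.65, SE 0.70, adjusted p = 0.174), within and above the WT range of 3.40 to 9.34 CPM. Ccnd1, cyclin D1, was 163 and 754 CPM in PCa and between 56.9 and 143 CPM in WT (log2 fold change 2.08, SE 0.64, adjusted p = 0.0845). DESeq2 called Ccnd1 (adjusted p = 0.0102), and edgeR without PCa 1 called Ccnd1, Ccnd2 and Cdk6. PCa 2 was the higher tumor for Cdk6 and Ccnd1, as for Rb1 and Cdkn1a. This list's count was 7 with DESeq2, 2 without WT 3 and 6 without PCa 1.

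Proliferation markers rose alongside Cdkn2a. All 10 were called higher in PCa against WT, and their sum was between 59.3 and 69.4 CPM in WT, between 61.9 and 129 CPM in PIN, and 623 and 617 CPM in PCa. Aurka, a mitotic kinase, was 142 and 11.5 CPM in PCa against between 1.09 and 1.68 CPM in WT (log2 fold change 5.73, SE 0.96, adjusted p = 0.0157), and Ccnb2, cyclin B2, was 18.2 and 19.3 CPM against between 1.06 and 1.48 CPM (3.93, SE 0.42, adjusted p = 0.00644). Without WT 3, 6 of the 10 were called. Higher Cdkn2a mRNA and higher proliferation marker mRNA were thus measured in the same tumors.

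Of the 9 tested senescence-associated genes, 3 were called higher and 0 lower in PCa against WT, with a median of 1.59. Over all tested genes, 4.35% were called higher, with a median of 0.01. Lmnb1, lamin B1, which is known to be lost in senescent cells, rose by 2.36 (SE 0.29, adjusted p = 0.00791), from between 4.85 and 8.35 CPM in WT to 36.4 and 30.8 CPM in PCa. Hmga2, a chromatin protein of fetal and tumor cells that is known to lower Cdkn2a in stem cells, was at or under 0.181 CPM in WT and PIN and at 17.1 and 30.0 CPM in PCa (log2 fold change 7.77, SE 0.95, adjusted p = 0.00791). Hmga2 also passed the filter through PCa alone (with no filter 7.75, adjusted p = 0.00538), and of the 8 other tested genes of the list 2 were called. The count was 2 without WT 3, PIN 3 or PCa 1 and 1 without PCa 2.

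**Figure D3:**
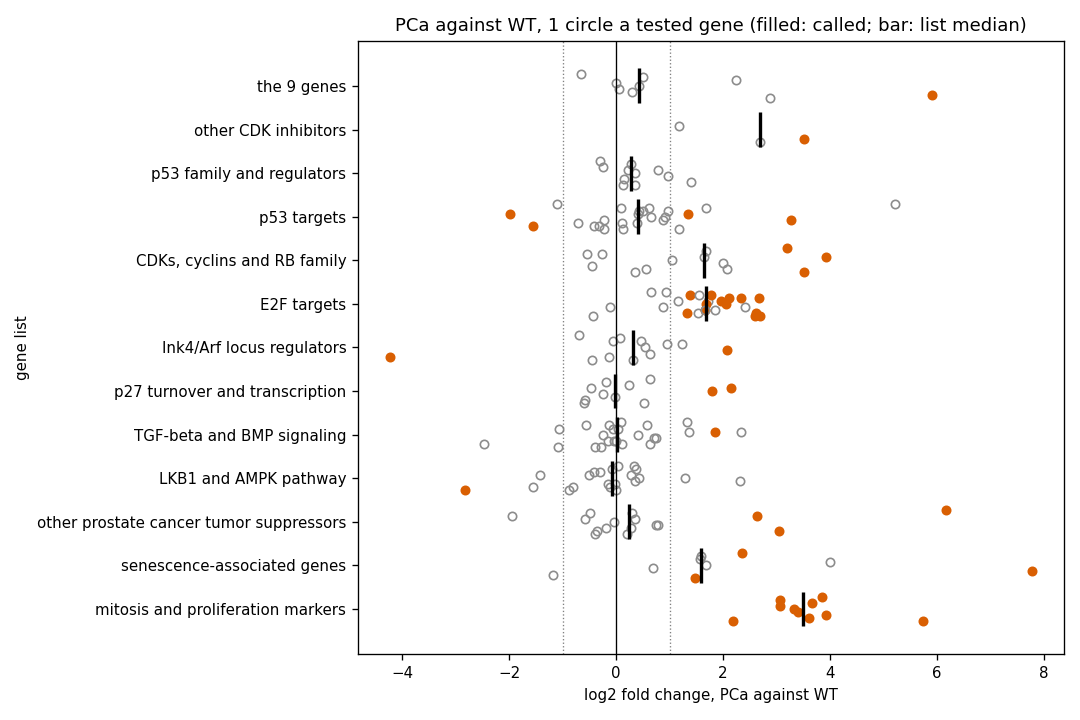
Log2 fold change in PCa against WT of each tested gene (circles, filled where called) for the 9 genes and 12 related lists, with list medians as bars and dotted lines at the fold limit of 1. The list medians are 3.50 for proliferation markers, 2.69 for the other CDK inhibitors, 1.68 for E2F targets, 1.65 for CDKs and cyclins and 1.59 for senescence-associated genes, and the p53 targets lie on both sides of 0 around 0.42. The medians of 2.69 and 1.65 are the values of Cdkn1c and Cdk6, for which PCa 2 but not PCa 1 was above the WT range.

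Smad4, at chr18:73798663-73863434, showed opposite deviations in the tumors. It was 146, 169 and 143 CPM in WT, 156, 141 and 126 CPM in PIN, and 190 and 125 CPM in PCa. PCa 1 was above and PCa 2 below all WT libraries. The log2 fold change in PCa against WT was 0.05 (SE 0.23, adjusted p = 0.920), or -0.27 without PCa 1 and 0.33 without PCa 2. Its receptor-regulated partners Smad2 and Smad3 had log2 fold changes of -0.56 (SE 0.51, adjusted p = 0.526) and 0.70 (SE 0.28, adjusted p = 0.150), and the inhibitory Smad7 of -0.40 (SE 0.29, adjusted p = 0.412). Smad3 was 65.8 and 84.4 CPM in PCa, above the WT range of 33.8 to 57.4 CPM. Of 24 TGF-beta and BMP genes, 1 was called in PCa against WT, beside 8.54% of all tested genes. The call was the ligand Tgfb1, which rose by 1.86 (SE 0.28, adjusted p = 0.0123), from 11.8, 8.97 and 7.65 CPM in WT and 13.3, 9.37 and 9.64 CPM in PIN to 32.9 and 35.8 CPM in PCa. Tgfb2 had a difference of -2.46 (SE 0.63, adjusted p = 0.0522), with 59.3, 34.7 and 59.2 CPM in WT against 3.35 and 15.2 CPM in PCa. The median over the list was 0.02, and its count of calls was 5 with DESeq2, Tgfb2 among them, 2 with limma, 0 without WT 3, 2 without PCa 2 and 7 without PCa 1.

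Stk11, at chr10:79578548-79593427, was the one gene of the 9 with lower CPM in PCa than in every WT and PIN library, against 15.4% of all tested genes. It was 136, 113 and 106 CPM in WT, 94.5, 96.0 and 96.3 CPM in PIN, and 86.7 and 63.7 CPM in PCa, so that the 3 groups did not overlap in CPM, an order that 1.67% of all tested genes shared. As TPM the groups overlapped, at 61.4 to 94.4 in WT, 68.4 to 73.3 in PIN and 55.2 to 72.2 in PCa. Stk11 was not called in any comparison. The log2 difference was -0.31 in PIN against WT (SE 0.18, adjusted p = 1), -0.65 in PCa against WT (SE 0.21, adjusted p = 0.0945) and -0.35 in PCa against PIN (SE 0.21, adjusted p = 0.368), below the fold limit in each. In PCa against WT, the adjusted p was under the limit with DESeq2 (log2 difference -0.63, adjusted p = 0.0257) and without PCa 1 (-0.88, adjusted p = 0.0441), both within the fold limit, and without PCa 2 the difference was -0.43 (adjusted p = 0.277). The 72 genes tested within 1 Mb of Stk11 had a median log2 fold change of -0.38 in PCa against WT, with 1 called higher and 2 lower. Stk11 shares 232 bases with Dos on the opposite strand. Its scaffold partners Strada and Cab39 had PCa against WT log2 fold changes of 0.43 (SE 0.28, adjusted p = 0.361) and -0.51 (SE 0.33, adjusted p = 0.357). Of 21 tested LKB1 and AMPK pathway genes, 0 were called higher and 1 lower, with a median of -0.08. Over all tested genes, 8.54% were called in either direction, with a median of 0.01. The call was Brsk1, a kinase that LKB1 activates, which fell by 2.83 (SE 0.51, adjusted p = 0.0203), from 7.22, 3.76 and 6.0 CPM in WT to 1.03 and 0.549 CPM in PCa. Tsc2, the AMPK substrate that restrains mTORC1, had a log2 difference of -0.81 (SE 0.20, adjusted p = 0.0468), within the fold limit. The list's count was 3 with DESeq2, 0 without WT 3 or PIN 3, 3 without PCa 1 and 4 without PCa 2.

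**Figure D4:**
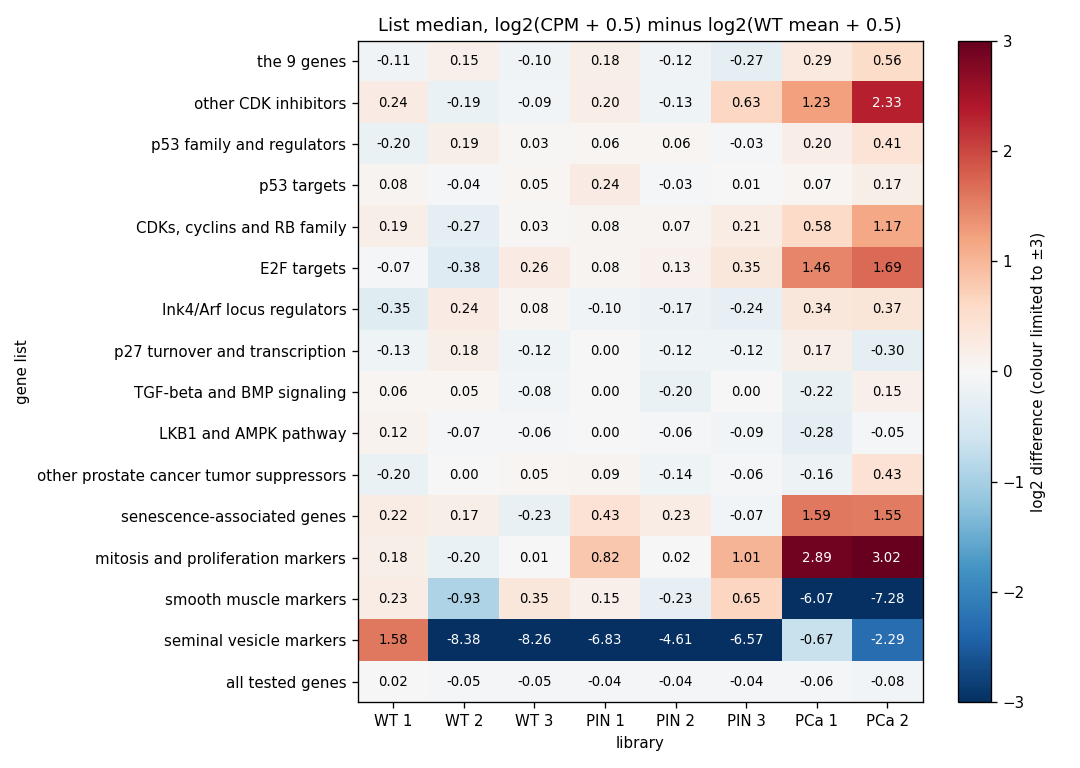
Median over the tested genes of each list of log2(CPM + 0.5) in a library minus log2(mean WT CPM + 0.5), 1 column a library, colours limited to 3 either way. The 9 genes differ from the WT mean by a median of 0.29 in PCa 1 and 0.56 in PCa 2, the E2F targets by 1.46 and 1.69, and smooth muscle markers by -6.07 and -7.28.

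Of 16 tested genes among other tumor suppressors known from prostate cancer, 3 were called higher and 0 lower in PCa against WT, with a median of 0.24. Over all tested genes, 4.35% were called higher, with a median of 0.01. Inpp4b, a phosphoinositide phosphatase, was 1.29, 0.952 and 1.98 CPM in WT, 2.66, 4.89 and 1.92 CPM in PIN, and 2.41 and 203 CPM in PCa, so that its log2 fold change of 6.18 (SE 1.45, adjusted p = 0.0412) rested on PCa 2. Brca1, a DNA repair gene expressed in cycling cells, was 2.27, 1.54 and 3.81 CPM in WT, 5.54, 3.44 and 4.60 CPM in PIN, and 18.3 and 23.6 CPM in PCa (log2 fold change 3.04, SE 0.44, adjusted p = 0.0108). The count was 1 without WT 1.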

How the data were processed

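Total RNA from mouse prostate was sequenced after ribosomal RNA depletion (Kapa RNA HyperPrep with RiboErase). Per the labels and the study's methods, the authors trimmed reads with cutadapt 1.9.1, aligned them to mm9 with HISAT2 2.1.0, and deposited the raw HTSeq 0.6.1 counts per gene used here. The annotation release and the strand and overlap settings are not given in the sources used here. Further deposited columns give coordinates and total exon length.

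The counts were tested in edgeR 4.0.16 (R 4.3.3) with TMM scaling, a filter of CPM above 1 in at least 2 libraries, 1 quasi-likelihood model of all 8 libraries with 3 groups, and Benjamini-Hochberg adjustment over all 14034 genes. The test has 5 residual degrees of freedom, and the common biological coefficient of variation was 0.489. SE is the absolute log2 fold change over the square root of F. CPM values are TMM-scaled, and TPM used the exon lengths. Libraries were grouped by their titles. Nothing in the sources used here states that replicates came from separate animals, so p-values measure the spread between these samples, which may be technical. Intervals cover counting error only.

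The 9 genes and the gene lists were chosen with earlier results of these data known. Named beside the 9 genes are, per list, the called genes that rose most and fell most in PCa against WT (2 each way), or the 2 with the lowest p where fewer than 2 were called, and a fixed set of direct partners. A gene that this rule names and the identity of the transgene are not reported here. Coordinates and exons are from GENCODE vM1 on NCBIM37 (mm9), which matched the deposited coordinates. Promoter windows came from RefSeq (GRCm38.p6) and were placed on mm9 by exact match. Alternatives were other scalings (upper quartile, RLE), DESeq2 1.42.0, limma 3.58.1 (trend, prior count 2), other filters, fitting just the pair of groups at hand, a replicate block, no fold limit, and leaving out each library. Where a symbol had several rows, the row with the most counts was used. The listed Adgre1, Kmt2c and Kmt2d matched no row of the table. The remaining marker lists gave, in PCa against WT, 1 call lower of 8 luminal, 0 of 5 basal, 0 of 6 fibroblast, 1 lower of 5 endothelium, 0 of 6 leukocyte, 0 of 6 seminal vesicle and 0 of 2 neuroendocrine genes tested. Over all tested genes, 8.54% were called in that comparison.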

Additional observations from a re-analysis of the deposited data

How the results depend on the processing

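In PIN against WT, none of the 9 genes was called under any alternative, with 8 tested where only the 2 groups were compared. In PCa against WT, where 1 was called, 3 were called with DESeq2, 0 with the replicate block, 0 with only the 2 groups compared, and 0 to 1 with 1 library left out. The single call was Cdkn1a, not Cdkn2a, without WT 2 and without PCa 1. In PCa against PIN, where 0 were called, 2 were called with DESeq2 and 0 to 3 with 1 library left out. The median log2 fold change of the 9 genes ranged from 0.38 to 0.45 over the other alternatives and from 0.22 to 0.54 with 1 library left out in PCa against WT. Genes called over the whole table numbered between 130 and 2487 in PCa against WT and between 151 and 1984 in PCa against PIN, against 1198 and 803, lowest with only the 2 groups compared and with the replicate block, respectively, and highest with DESeq2. With 1 library left out they ranged from 347 (without WT 3) to 2477 (without PCa 1) and from 78 (without PIN 3) to 2251 (without PCa 1). The share of calls that were higher in PCa than in PIN was 44.6%, 18.5% with the replicate block, 35.8% with limma, and with 1 library left out between 8.97% (without PIN 3) and 45.1% (without PCa 2). In PCa against WT it was 51.0%, and 41.0% without WT 2. No scaling moved the median of all genes by over 0.1. With only the WT and PCa libraries in the fit, 1 E2F target, 2 CDKs and cyclins, 6 proliferation markers and 1 senescence-associated gene were called, and 0 genes of each of the 8 other related lists. The replicate numbers were not treated as pairs in the main fit. Same-numbered libraries had residual correlations between -0.05 and 0.27, and differently numbered ones between -0.27 and 0.16. The residuals of the 2 PCa libraries around their mean mirror each other, so these values cannot decide whether the numbers mark pairs.

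Several differences that were not called changed sign. In PIN against WT, Cdkn1a (-0.07) was 0.0549 with upper-quartile scaling, 0.34 with limma and 0.46 with the replicate block, and ranged from -0.60 to 1.29 with 1 library left out, as Trp53 (0.08) did from -0.0668 to 0.30, Cdkn1b (-0.09) from -0.25 to 0.15 and Cdkn2b (-0.34) from -0.73 to 0.0167. In PCa against WT, Cdkn1b (0.00) was -0.0239 with no filter, -0.00984 with filterByExpr, -0.0866 with the replicate block and -0.0128 with only the 2 groups compared, and ranged from -0.27 to 0.26 with 1 library left out. Smad4 (0.05) was -0.0357 with the replicate block and from -0.27 to 0.33 with 1 library left out, and Rb1 (0.51) from -0.24 to 1.02. In PCa against PIN, Cdkn1b (0.09) was -0.0255 with the replicate block and from -0.18 to 0.35 with 1 library left out, as were Smad4 (0.16) from -0.16 to 0.45, Rb1 (0.65) from -0.10 to 1.16 and Mdm2 (0.04) from -0.12 to 0.22. The cause was not tested. With 1 PCa library left, that sample is assumed to vary like the other groups, and 8 of the 9 genes were tested.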
